A study of Homo sapiens with 40 samples.

Results

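The heat shock genes described here are 10 genes of the protein-folding machinery: HSPA6, HSPA1A, HSPA1B, HSPA8, HSPH1, DNAJB1, HSPB1, HSP90AA1, BAG3 and HSPD1. They were taken from the 58395 genes of the count table as genes linked to heat shock factor 1 (HSF1), and the list was chosen by the raw counts of HSPA6, which had been seen to be higher in PARP1-knockout (PARP1-KO) cells. That choice named no treatment, so the genotype differences of HSPA6 are a description under all 5 treatments and not a test. Those of the other 9 genes are described without treatment and with DMSO and tested in the drug-treated cells. All 10 genes passed the filter on low counts. The list is not wholly cytosolic: HSPD1 encodes the HSP60 chaperonin of the mitochondrial matrix, and it was kept as a member under the rule.

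When unfolded proteins accumulate, HSF1 is released from the chaperones that hold it, forms trimers and binds heat shock elements, which are runs of GAA and TTC units placed head to head in front of its target genes. HSP70 proteins fold clients, J-domain proteins such as DNAJB1 bring them substrates, exchange factors such as HSPH1 and BAG3 reload them, small heat shock proteins such as HSPB1 hold unfolded proteins, and HSP90 completes the folding of kinases and receptors. HSPA8 is the constitutive HSP70 of the cytosol, HSPA1A and HSPA1B are its stress-inducible relatives, and HSPA6 is a strictly inducible HSP70 that is nearly silent in most unstressed cells.

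RNA was measured by sequencing in HEK293A cells, an adherent line derived from human embryonic kidney, as wild type (WT) and as 1 PARP1-KO clone made with CRISPR/Cas9. PARP1 encodes a DNA damage sensor that makes poly(ADP-ribose). For 5 to 5.5 h each genotype received no treatment, 0.1% DMSO, topotecan (Tpc) with 0.1% DMSO, 5 µM OL9-119 in 0.1% DMSO, or Tpc with 5 µM OL9-119, and each of these 10 conditions had 4 replicates, 40 libraries in all. Tpc traps topoisomerase 1 on DNA, and OL9-119 targets TDP1, which repairs such trapped complexes. Tpc was given at 100 nM to WT and at 50 nM to PARP1-KO cells, so a genotype comparison under Tpc is also one of doses, while the OL9-119 dose was the same. The labels call the replicates biological and the methods call them technical, so p-values measure only the spread between these libraries. With a single clone, what belongs to the lost gene cannot be told apart from what belongs to that clone.

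PARP1 itself stood between 737 and 887 CPM (the count of a gene per megacount of its library, with library sizes scaled by TMM) in the 20 WT libraries and between 30.4 and 46.6 CPM in the 20 PARP1-KO libraries. This was 4.33% of the WT mean without treatment and 5.24% with Tpc, the lowest and highest of the 5 treatments (exact two-sided permutation p = 0.0286 in each, the smallest that 70 divisions of 8 libraries allow). The labels name the genotype both knockout and knockdown. All 10 markers of HEK293 cells were present at a mean of at least 1 CPM in both genotypes. Of 10 markers of other cells, 3 reached that level in WT and 4 in PARP1-KO cells, and their summed level was 18.2 to 51.7 CPM in WT and 13.6 to 24.5 CPM in PARP1-KO libraries. Total counts ran from 3455043 to 20379777 per library. After thinning to the smallest total, 15534 to 20626 genes were detected in WT and 17957 to 21532 in PARP1-KO libraries.

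The promoters of HSPA6, HSPA1B, HSPA1A, HSPA8 and DNAJB1 are shown first, because heat shock elements are what HSF1 binds. The members were listed as genes linked to HSF1 and were not chosen by these elements. Each sequence is the 250 bases before a transcription start in RefSeq on GRCh38.p14, written 5′ to 3′ on the strand of the gene, and capitals mark each core match of the element (GAANNTTC or TTCNNGAA, both equal to their own reverse complement, neighbouring cores sharing 3 bases).

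HSPA6, chr1:161524290-161524539, plus strand: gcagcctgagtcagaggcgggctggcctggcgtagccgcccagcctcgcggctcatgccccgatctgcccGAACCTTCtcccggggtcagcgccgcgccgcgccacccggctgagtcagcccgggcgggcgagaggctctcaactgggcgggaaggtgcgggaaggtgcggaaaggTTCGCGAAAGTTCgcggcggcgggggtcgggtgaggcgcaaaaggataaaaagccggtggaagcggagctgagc
HSPA1B, chr6:31827488-31827737, plus strand: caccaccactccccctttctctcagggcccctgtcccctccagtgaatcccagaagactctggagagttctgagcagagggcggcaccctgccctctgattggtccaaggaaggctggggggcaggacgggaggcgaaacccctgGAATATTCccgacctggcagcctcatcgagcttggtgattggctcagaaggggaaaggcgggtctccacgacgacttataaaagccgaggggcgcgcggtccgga
HSPA1A, chr6:31815293-31815542, plus strand: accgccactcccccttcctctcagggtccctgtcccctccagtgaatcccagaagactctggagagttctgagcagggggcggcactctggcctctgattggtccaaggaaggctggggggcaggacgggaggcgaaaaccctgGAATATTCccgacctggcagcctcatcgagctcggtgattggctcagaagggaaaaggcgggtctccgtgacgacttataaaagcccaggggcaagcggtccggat
HSPA8, chr11:123062137-123062386, minus strand: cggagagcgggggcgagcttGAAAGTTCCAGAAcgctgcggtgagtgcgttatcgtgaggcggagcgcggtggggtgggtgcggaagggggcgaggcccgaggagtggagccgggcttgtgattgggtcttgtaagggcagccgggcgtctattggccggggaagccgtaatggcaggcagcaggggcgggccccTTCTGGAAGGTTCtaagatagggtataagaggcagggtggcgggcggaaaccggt
DNAJB1, chr19:14518398-14518647, minus strand: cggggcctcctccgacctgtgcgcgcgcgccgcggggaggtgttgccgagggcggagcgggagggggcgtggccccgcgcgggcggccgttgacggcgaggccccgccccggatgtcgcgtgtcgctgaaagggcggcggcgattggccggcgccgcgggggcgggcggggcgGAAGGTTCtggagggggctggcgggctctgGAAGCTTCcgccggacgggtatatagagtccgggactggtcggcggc

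HSPA6 held 3 cores, of which 2 overlapped as a run of 3 units starting 74 bases before the start, and HSPA8 held 4 cores in a pair of such runs. DNAJB1 held 2 separate cores in this window and none in its other RefSeq windows. The windows of HSPA1A and HSPA1B were 93.6% identical over 251 aligned positions and held 1 core each. Of the 5 genes not shown, HSP90AA1 and HSPD1 each had a window with 3 cores and a run of 3 units, HSPB1 had 1 core, and HSPH1 and BAG3 had none within 250 bases. Among 35116 such windows in the genome 11.6% held at least 1 core, 1.32% at least 2, and 0.441% a run of 3 units. A match is a stretch of letters and not a measured binding site, and the absence of one says only that these letters are not in this window.

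HSPA6, at chr1:161524540-161526894 on hg38 with a single exon, was nearly silent in WT cells and stood far higher in the PARP1-KO clone under every treatment. Without treatment the 4 WT libraries held 0.0734, 0.810, 3.75 and 2.75 CPM and the 4 PARP1-KO libraries 44.9, 48.8, 47.7 and 53.4 CPM. With DMSO the WT libraries held 3.41, 0, 0 and 1.25 CPM and the PARP1-KO libraries 59.0, 52.3, 43.6 and 41.7 CPM. No PARP1-KO library came near any WT library in either condition. The fitted log2 fold change, PARP1-KO over WT, was 4.81 (SE 0.45) without treatment and 5.18 (SE 0.46) with DMSO. The gene was chosen on these values, and no p is given for them.

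The drug-treated libraries came from the same clone and also separated the genotypes, and these values too are a description. With OL9-119 the WT libraries held 0.471, 1.36, 1.27 and 1.13 CPM and the PARP1-KO libraries 44.5, 54.9, 51.0 and 48.4 CPM, a log2 fold change of 5.60 (SE 0.48). The log2 fold change was 4.94 (SE 0.46) with Tpc and 5.86 (SE 0.51) with Tpc + OL9-119. Over all 20 PARP1-KO libraries HSPA6 ranged from 36.6 to 65.3 CPM, and over all 20 WT libraries from 0 to 3.75 CPM, with no overlap. The WT level rested on 0 to 48 counts per library, and the 3 WT libraries at 0 counts allow a level of up to 0.316, 0.360 and 0.324 CPM (3 counts, counting error only). The size of the fold is therefore less certain than its direction. Leaving out 1 library moved it between 4.77 and 7.14 with DMSO, the highest without WT DMSO replicate 1, between 4.35 and 5.54 without treatment, the highest without untreated WT replicate 3, and between 5.40 and 6.91 with the combination, the highest without WT Tpc + OL9-119 replicate 1. With Tpc it stayed between 4.74 and 5.14 and with OL9-119 between 5.30 and 5.76.

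No drug response of HSPA6 passed the test in either genotype. In PARP1-KO cells its log2 fold change against untreated cells was 0.02 with Tpc, 0.03 with OL9-119, −0.03 with the combination and 0.01 with DMSO, each with an SE of 0.35. In WT cells it was −0.11 (SE 0.54) with Tpc, −0.77 (SE 0.56) with OL9-119, −1.08 (SE 0.62) with the combination and −0.36 (SE 0.54) with DMSO, where changes of this size were not detectable at these counts. The response of PARP1-KO minus that of WT cells was 0.80 (SE 0.66, edgeR adjusted p = 0.863) for OL9-119 and 1.05 (SE 0.71, edgeR adjusted p = 0.596) for the combination, and neither passed.

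HSPA6 has a near copy, the pseudogene HSPA7 at chr1:161606291-161608217. Their transcripts were 80.6% identical and 27.8% of the 100-base stretches of HSPA6 also occurred in HSPA7. Reads from these stretches may be missing from the counts of both. HSPA7 had 0 counts in 15 of 20 WT libraries and at least 1 count in all 20 PARP1-KO libraries, where it ranged from 0.157 to 1.87 CPM. Its highest WT library, DMSO replicate 3, held 3.00 CPM while HSPA6 held 0 there. With both genes summed, the HSPA6 difference with DMSO was 4.48 in place of 5.18. The 72 other genes with a mean of at least 1 CPM within 5 Mb of HSPA6 had a median log2 fold change of 0.24 without treatment and 0.27 with the combination.

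**Figure D1:**
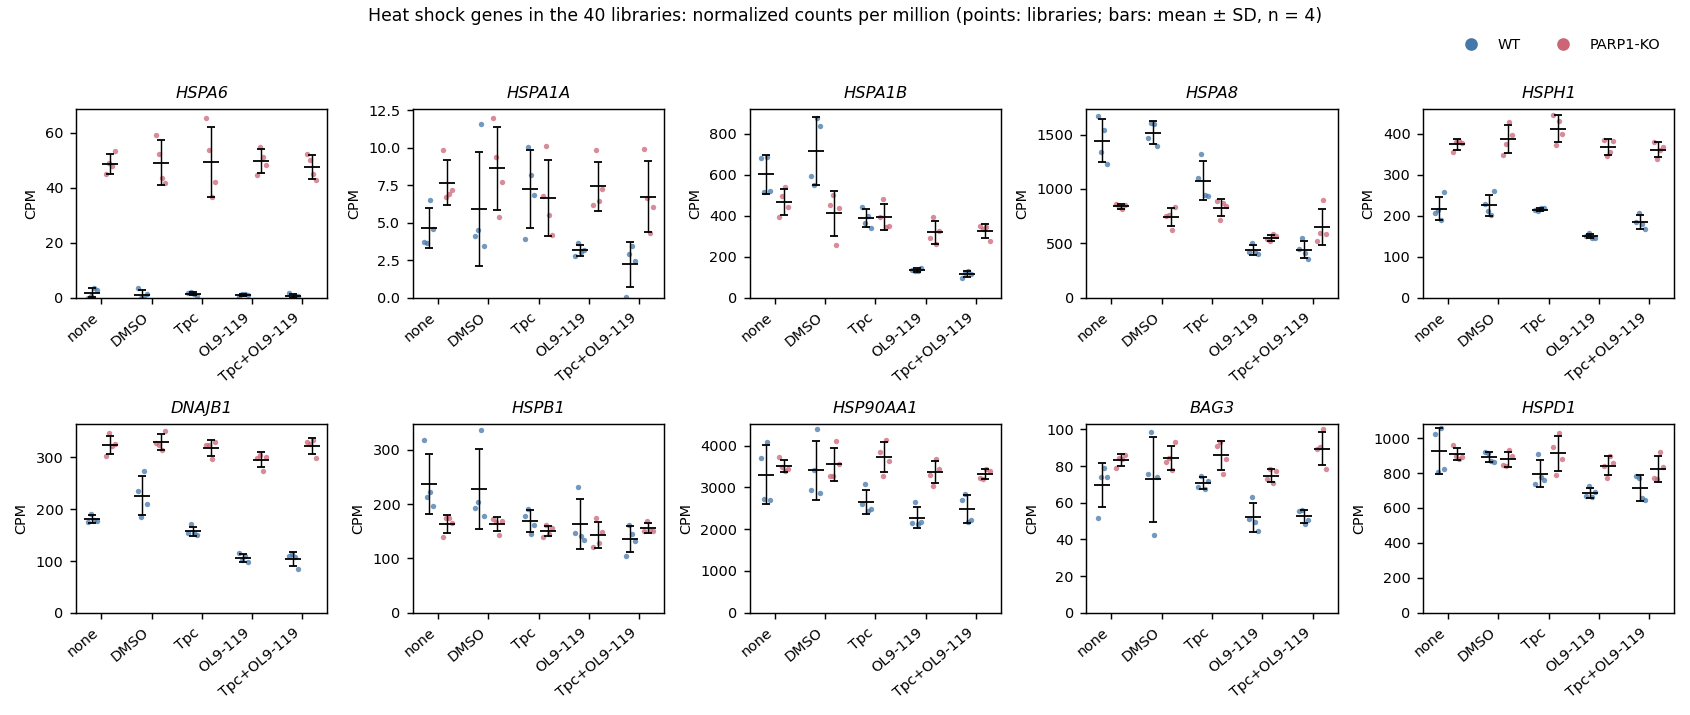
Normalized levels in CPM of the 10 heat shock genes (vertical axes, linear from 0) in the 5 treatments of WT and PARP1-KO cells. Points are libraries and bars give the mean ± SD (n = 4). HSPA6 lies at 36.6 to 65.3 CPM in PARP1-KO libraries and at no more than 3.75 CPM in WT libraries, and HSPA1B, HSPA8 and DNAJB1 are low with OL9-119 in WT cells, at means of 136, 437 and 106 CPM.

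The members stood at very unequal levels, which are compared here per kilobase of exon. In untreated WT cells HSP90AA1 was highest at 648 ± 137 CPM per kilobase (SD, n = 4), followed by HSPA8 at 298 ± 41.1, HSPA1B at 239 ± 38.2, HSPB1 at 146 ± 33.99 and HSPD1 at 121.5 ± 17.4 CPM per kilobase. HSPH1 at 25.98 ± 3.48, BAG3 at 25.4 ± 4.45 and DNAJB1 at 22.1 ± 0.890 lay lower, and HSPA1A at 1.93 ± 0.550 and HSPA6 at 0.784 ± 0.722 CPM per kilobase lowest. Neighbours in that order whose libraries overlapped were HSPA8 and HSPA1B, HSPB1 and HSPD1, HSPH1 and BAG3, BAG3 and DNAJB1, and HSPA1A and HSPA6. In untreated PARP1-KO cells HSPA6 reached 20.7 ± 1.51 CPM per kilobase, above HSPA1A at 3.20 ± 0.613 and below BAG3 at 30.4 ± 1.17, with no overlap of libraries on either side. Lengths are unions of all annotated exons, which sets genes with long rare transcripts lower.

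**Figure D2:**
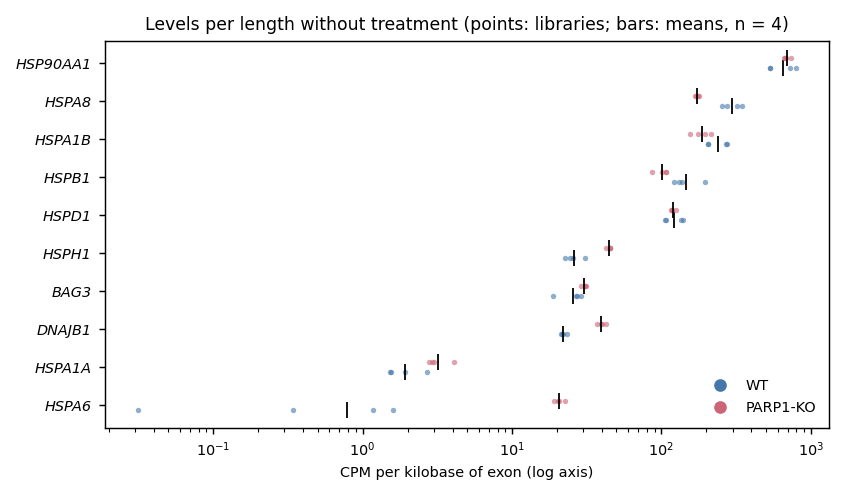
Levels of the 10 genes per kilobase of exon without treatment (horizontal axis, CPM per kilobase, log scale) in WT and PARP1-KO cells. Points are libraries and bars are means (n = 4). In WT cells the HSPA6 mean is 0.784, and in PARP1-KO cells 20.7, while HSP90AA1 is the highest in both.

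HSPA1A and HSPA1B lie side by side on chromosome 6, at chr6:31815543-31817946 and chr6:31827738-31830254. Their transcripts were 91.2% identical, and 72.4% of the 100-base stretches of HSPA1A occurred also in another gene, mostly HSPA1B. HSPA1A held 0.0801 to 12.0 CPM over the 40 libraries and HSPA1B 97.2 to 876 CPM. Reads from such stretches may be missing from the counts of both. The values of both are therefore uncertain in level and as to the copy, and the pair is followed through HSPA1B. With the copies summed, the calls of HSPA1B with OL9-119 and with the combination in WT cells, and between the genotypes under both, were the same. HSPA1A is a small part of that sum, so summing could hardly move strong calls. It also does not bring back reads missing from both copies. HSPA1B was called lower with Tpc in WT cells. With the copies summed that call was lost, at −0.62 (edgeR adjusted p = 0.0104).

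In WT cells the falls of largest size among the members were those of HSPA1B and HSPA8, with OL9-119 and with Tpc + OL9-119. Untreated WT libraries held 682, 518, 687 and 519 CPM of HSPA1B and OL9-119 libraries 138, 129, 129.8 and 146 CPM. All 4 treated libraries lay below all 4 untreated ones, and HSPA1B fell by 2.15 on the log2 scale (SE 0.15, edgeR adjusted p = 7.90e-16). HSPA8, the constitutive HSP70, held 1669, 1337, 1544 and 1228 CPM without treatment and 422, 503, 421 and 404 CPM with OL9-119. Again no library overlapped, and HSPA8 fell by 1.72 on the log2 scale (SE 0.13, edgeR adjusted p = 1.14e-15).

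DNAJB1, the J-domain partner of cytosolic HSP70, held 175, 192, 179 and 178 CPM in untreated WT cells and 116.2, 101.8, 109 and 97.4 CPM with OL9-119, and fell by 0.77 on the log2 scale (SE 0.10, edgeR adjusted p = 6.41e-07). HSPH1, an HSP110 exchange factor, fell by 0.53 on the log2 scale (SE 0.10, edgeR adjusted p = 0.000441). HSP90AA1, the inducible HSP90, fell by 0.54 on the log2 scale (SE 0.11, edgeR adjusted p = 0.00209), and HSPD1 fell by 0.43 on the log2 scale (SE 0.10, edgeR adjusted p = 0.00416). In all, 6 of the 10 genes were called lower with OL9-119 in WT cells and 0 higher, where 0.833% of the 28922 tested genes were called lower. The median log2 fold change was −0.55 over the 10 genes and 0.00 over all genes, and all 10 values were below 0. The 4 genes that did not pass were HSPB1 at −0.54 (SE 0.15), BAG3 at −0.42 (SE 0.15), HSPA1A at −0.55 (SE 0.45) and HSPA6 at −0.77 (SE 0.56).

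The calls on HSP90AA1 and HSPD1 were the least stable of these. Untreated WT replicates 1 and 3 held 3700 and 4089 CPM of HSP90AA1 and replicates 2 and 4 held 2722 and 2704 CPM, against 2120 to 2648 CPM with OL9-119. After thinning, untreated replicates 1 and 3 had 16874 and 15576 detected genes and replicates 2 and 4 had 19745 and 19898. OL9-119 replicate 2, at 2648 CPM, had 16740, against 19937 to 20626 in the other OL9-119 libraries. The part of this split in the HSP90AA1 level was not tested. With detected genes as a covariate 6 members were called lower. The HSP90AA1 and HSPD1 calls were lost in 5 of 8 fits that left out a library, namely untreated WT replicate 1 or 3 or OL9-119 replicate 1, 3 or 4. Without untreated WT replicate 3 the log2 fold changes were −0.42 and −0.36. With only the 8 libraries compared in the fit, 3 members were called, HSPA1B, HSPA8 and DNAJB1. With length and GC offsets the HSP90AA1 value was −0.65 (edgeR adjusted p = 0.0103).

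Tpc alone gave 1 call among these genes in WT cells. HSPA1B held 442, 367, 399 and 341 CPM, below the 4 untreated libraries, and fell by 0.64 on the log2 scale (SE 0.15, edgeR adjusted p = 0.00772). Of all tested genes 0.304% were called lower. The call was lost in 5 of 8 fits that left out a library, those without untreated WT replicate 1 or 3 or WT Tpc replicate 2, 3 or 4, with log2 fold changes from −0.71 to −0.56 over the 8. It was also lost with the copies summed, at −0.62 (edgeR adjusted p = 0.0104), and with filterByExpr, at −0.63 (edgeR adjusted p = 0.0113). HSPA8 at −0.43 (SE 0.12, edgeR adjusted p = 0.0481) and HSPB1 at −0.49 (SE 0.15, edgeR adjusted p = 0.0802) did not pass.

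With Tpc + OL9-119 in WT cells 5 of 10 members were called lower, where 2.0% of all tested genes were. HSPA1B held 97.2, 122.3, 129.7 and 117.2 CPM and fell by 2.37 on the log2 scale (SE 0.16, edgeR adjusted p = 3.39e-18). HSPA8 fell by 1.71 on the log2 scale (SE 0.13, edgeR adjusted p = 3.50e-16) and DNAJB1 fell by 0.80 on the log2 scale (SE 0.10, edgeR adjusted p = 1.06e-07). HSPB1, a small heat shock protein, fell by 0.80 on the log2 scale (SE 0.16, edgeR adjusted p = 0.000286), a call lost with length and GC offsets at −0.54 (edgeR adjusted p = 0.0195). HSPD1 fell by 0.37 on the log2 scale (SE 0.10, edgeR adjusted p = 0.00756), a call lost in 4 of 8 fits that left out a library, those without untreated WT replicate 1 or 3 or WT Tpc + OL9-119 replicate 3 or 4, and also with RLE normalization and with only the libraries compared. HSPH1 at −0.23 (SE 0.10, edgeR adjusted p = 0.148) and HSP90AA1 at −0.41 (SE 0.11, edgeR adjusted p = 0.0152) did not pass. The drug responses share the 4 untreated libraries and are not independent of each other.

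Against Tpc alone, a comparison that uses no untreated library, the combination lowered 3 members in WT cells, where 0.0622% of all tested genes were called lower. These were HSPA1B at −1.73 (SE 0.15, edgeR adjusted p = 6.13e-12), HSPA8 at −1.28 (SE 0.12, edgeR adjusted p = 1.53e-10) and DNAJB1 at −0.60 (SE 0.10, edgeR adjusted p = 0.000415). In total 18 genes were called lower, among them DNAJA1, another cytosolic J-domain protein. The DNAJB1 call was lost without WT Tpc + OL9-119 replicate 4, at −0.52 (edgeR adjusted p = 0.0101), and with length and GC offsets, at −0.48 (edgeR adjusted p = 0.0927).

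DMSO, the solvent, gave no call on any member in WT cells, where 0.0% of all tested genes were called by edgeR. At an unadjusted p under 0.05 there were 1 member and 3116 genes of all, and DESeq2 called 0 members. The 10 values lay between −0.36 and 0.35. DMSO was present in the OL9-119 libraries, and against DMSO-treated WT cells HSPA1B stood at −2.40 and DNAJB1 at −1.09 with OL9-119. Against these DMSO cells 5 of the 6 members called with OL9-119 were called, and HSPD1 was not, at −0.38 (edgeR adjusted p = 0.0166) with OL9-119 and −0.32 (edgeR adjusted p = 0.0296) with the combination, while HSP90AA1 passed with the combination at −0.45 (edgeR adjusted p = 0.00739).

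**Figure D3:**
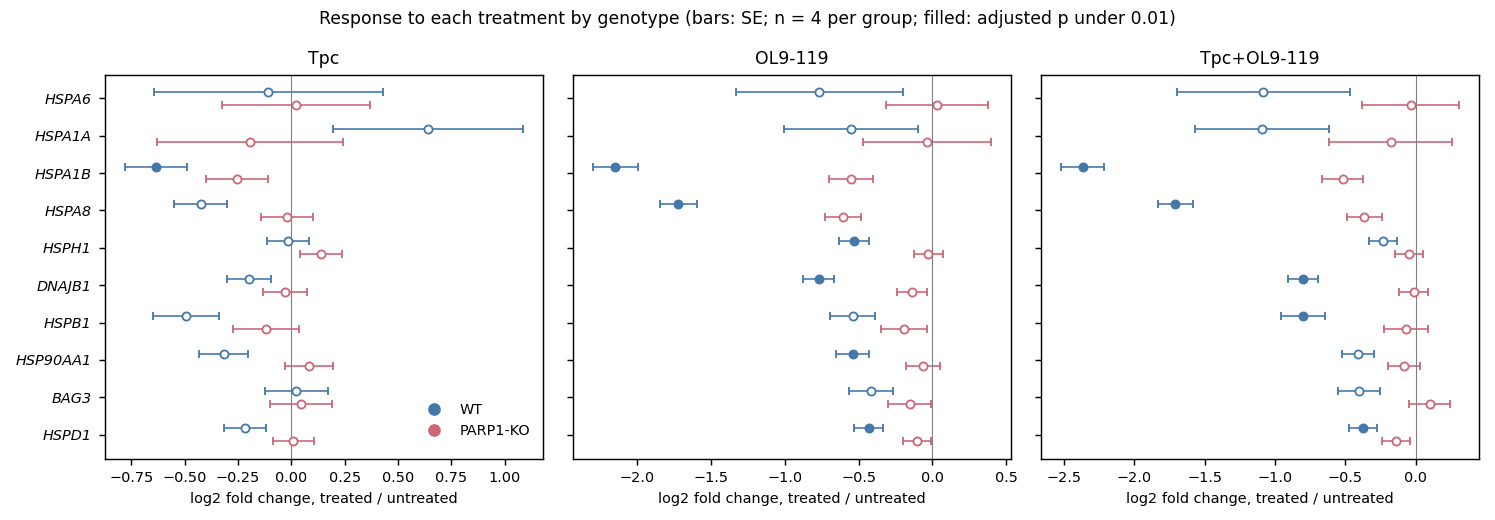
Log2 fold change of each heat shock gene against untreated cells of the same genotype (horizontal axes) with Tpc, OL9-119 and Tpc + OL9-119. Bars are the SE, n = 4 per group, and filled points passed an adjusted p of 0.01. Filled points are found in WT cells only, with HSPA1B at −2.15 and HSPA8 at −1.72 with OL9-119, where the PARP1-KO points of the same genes lie at −0.55 and −0.61.

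In PARP1-KO cells OL9-119 at the same 5 µM gave no call on any of the 10 genes, where 0.00346% of all tested genes were called. HSPA8 held 866, 832, 814 and 850.3 CPM without treatment and 536, 523, 583 and 566 CPM with OL9-119, so that the groups did not overlap, and its log2 fold change was −0.61 (SE 0.12, edgeR adjusted p = 0.0796). HSPA1B held 392, 496, 539 and 443 CPM without treatment and 292, 393, 264 and 328 CPM with OL9-119, with an overlap of 1 library on each side, at −0.55 (SE 0.15, edgeR adjusted p = 0.733). The other 8 members lay between −0.19 and 0.03. At an unadjusted p under 0.05 edgeR gave 2 members and 931 genes of all, and DESeq2 called 0 members. HSPA8 and HSPA1B were called when no filter on low counts was used (edgeR adjusted p = 7.55e-05 and 0.00563) and when only the 8 libraries compared were fitted, so the missing call does not show that they did not respond.

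With Tpc + OL9-119 in PARP1-KO cells HSPA8 stood at −0.36 (SE 0.12) and HSPA1B at −0.52 (SE 0.15). No member was called by edgeR or DESeq2, 2 members and 1241 genes of all had an unadjusted p under 0.05, and 0.0% of all tested genes were called. In replicate 3 of that condition HSPA8 held 896 CPM, above all 4 untreated libraries, while the other 3 held 526 to 599.8 CPM. With Tpc at 50 nM the 10 values lay between −0.25 and 0.14, with 0 members called by either tool, 0 members and 1713 genes of all at an unadjusted p under 0.05 in edgeR, and 0.0138% of all tested genes called. With DMSO they lay between −0.19 and 0.18, with 0 members called by either tool, 0 members and 538 genes at an unadjusted p under 0.05 in edgeR, and 0.0% called. Against Tpc alone the combination gave values between −0.35 and 0.06, with 0 members called by either tool, 1 member and 1186 genes at an unadjusted p under 0.05 in edgeR, and 0.0% called.

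The difference between the genotypes in these responses was tested directly. For OL9-119 the response of HSPA1B differed by 1.60 (SE 0.21, edgeR adjusted p = 2.31e-06) and that of HSPA8 by 1.12 (SE 0.17, edgeR adjusted p = 6.39e-05), both less negative in PARP1-KO cells. In total 4 genes differed in that direction, 0.0138% of those tested, and the others were DNAJA1 at 0.78 (SE 0.15, edgeR adjusted p = 0.00287) and TXNIP at 1.03 (edgeR adjusted p = 0.00329), an inhibitor of thioredoxin that is named because the count is small. DNAJB1 at 0.63 (SE 0.15, edgeR adjusted p = 0.0583) and HSPH1 at 0.50 (SE 0.14, edgeR adjusted p = 0.358) did not pass, and DESeq2 called both.

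For Tpc + OL9-119 the differences were 1.85 (SE 0.21, edgeR adjusted p = 7.44e-09) for HSPA1B, 1.34 (SE 0.17, edgeR adjusted p = 3.65e-07) for HSPA8 and 0.79 (SE 0.15, edgeR adjusted p = 0.00087) for DNAJB1, where 0.0692% of all tested genes differed in that direction. The Tpc doses differ between the genotypes in this comparison. All 10 members had a difference above 0 for both treatments, with medians of 0.51 and 0.76 against −0.06 and 0.01 over all genes. For Tpc alone 0 members differed by edgeR or DESeq2, with 2 members and 2142 genes of all at an unadjusted p under 0.05 in edgeR, where 0.1% of all genes were called. The calls on HSPA1B and HSPA8 held in all 16 fits that left out a library and in all 11 other settings for both treatments, with differences from 1.48 to 2.28 for HSPA1B and from 1.02 to 1.59 for HSPA8. The DNAJB1 call for the combination held in all 16 such fits and in 10 of 11 other settings, and was lost with length and GC offsets at 0.73 (edgeR adjusted p = 0.0504). These differences use the same untreated libraries as the responses above.

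The order of the genotypes was not the same in all treatments. HSPA8 stood at −0.78 (SE 0.12) in PARP1-KO over WT cells without treatment and at −1.03 (SE 0.12) with DMSO, both given as a description. It was −0.37 (SE 0.12, edgeR adjusted p = 0.0295) with Tpc, 0.34 (SE 0.12, edgeR adjusted p = 0.0536) with OL9-119 and 0.56 (SE 0.12, edgeR adjusted p = 0.000743) with the combination. Only the last passed, and without PARP1-KO Tpc + OL9-119 replicate 3 it was 0.37 (edgeR adjusted p = 0.0326) and with length and GC offsets 0.46 (edgeR adjusted p = 0.0337). With only the 8 libraries compared in the fit the other two passed, at −0.40 (edgeR adjusted p = 0.000375) with Tpc and 0.36 (edgeR adjusted p = 0.00226) with OL9-119. HSPA8 lies at chr11:123057489-123063230, and the 79 other genes at 1 CPM or more within 5 Mb of it had a median log2 fold change of −0.62 without treatment, −0.69 with DMSO and −0.58 with the combination. The 854 on the whole chromosome had −0.49 without treatment, against 0.02 over all 15347 genes at that level. The part of this regional difference in the HSPA8 level was not tested.

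HSPA1B stood at −0.36 (SE 0.15) without treatment, −0.80 (SE 0.15) with DMSO and 0.02 (SE 0.15) with Tpc. It was called higher in PARP1-KO cells with OL9-119 at 1.24 (SE 0.15, edgeR adjusted p = 4.19e-09) and with the combination at 1.49 (SE 0.15, edgeR adjusted p = 5.18e-11). With OL9-119 the PARP1-KO libraries held 264 to 393 CPM and the WT libraries 129 to 146 CPM. PARP1-KO DMSO replicate 3 held 255 CPM of HSPA1B where the other 3 held 436 to 499.7 CPM.

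DNAJB1 and HSPH1 lay higher in PARP1-KO cells under all 5 treatments. Without treatment and with DMSO the groups did not overlap for either gene, where 19.7% and 20.1% of all tested genes did not. DNAJB1 held 303 to 346 CPM in untreated PARP1-KO and 175 to 192 CPM in untreated WT libraries, a described log2 fold change of 0.84 (SE 0.10). It was called higher with Tpc at 1.01 (SE 0.10, edgeR adjusted p = 4.80e-11), with OL9-119 at 1.48 (SE 0.11, edgeR adjusted p = 7.48e-17) and with the combination at 1.63 (SE 0.11, edgeR adjusted p = 1.93e-18). HSPH1 held 356 to 383 CPM in untreated PARP1-KO and 191 to 259 CPM in untreated WT libraries, a described log2 fold change of 0.78. It was called higher with Tpc at 0.94 (SE 0.10, edgeR adjusted p = 1.72e-10), with OL9-119 at 1.28 (SE 0.10, edgeR adjusted p = 4.06e-15) and with the combination at 0.97 (SE 0.10, edgeR adjusted p = 1.11e-10). The 39 neighbours of HSPH1 within 5 Mb had a median of 0.63 without treatment and 0.41 with OL9-119, and the 234 of DNAJB1 medians of 0.21 and 0.18. The part of these regional differences in the levels of HSPH1 and DNAJB1 was not tested.

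HSP90AA1 was called higher in PARP1-KO cells at 0.49 (SE 0.11, edgeR adjusted p = 0.00143) with Tpc, 0.57 (SE 0.11, edgeR adjusted p = 0.000167) with OL9-119 and 0.41 (SE 0.11, edgeR adjusted p = 0.00906) with the combination, while its described values without treatment and with DMSO were 0.09 and 0.06. With adjustment for length and GC content none of these HSP90AA1 calls was made. The call with the combination was lost in 6 of 8 fits that left out a library, all but those without WT Tpc + OL9-119 replicate 1 or 2, and with DESeq2 and RLE normalization, and that with Tpc in 1 of 8, without PARP1-KO Tpc replicate 3. BAG3, which links HSP70 to small heat shock proteins and autophagy, was called higher with OL9-119 at 0.52 (SE 0.15, edgeR adjusted p = 0.00846) and with the combination at 0.76 (SE 0.15, edgeR adjusted p = 0.000147), the first lost in 7 of 8 such fits, all but that without WT OL9-119 replicate 2, and with the library name prefix as a covariate. HSPB1 stood at −0.54 (SE 0.15) without treatment and at −0.48 (SE 0.15) with DMSO, and passed in none of the drug treatments, at −0.16, −0.19 and 0.20. HSPD1 lay between −0.03 and 0.30 throughout.

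Counted over the 9 members other than HSPA6, 3 were called higher in PARP1-KO cells with Tpc, where 4.17% of all tested genes were, 5 with OL9-119, where 4.94% were, and 6 with the combination, where 3.56% were. None of the 9 was called lower in the 3 treatments, where 4.34%, 4.83% and 3.71% of all genes were. Their median log2 fold changes were 0.19, 0.57 and 0.76, against 0.07, 0.04 and 0.14 over all genes. The counts of 3, 5 and 6 were 2, 4 and 4 with length and GC offsets, 3, 4 and 6 with the library name prefix as a covariate and 3, 6 and 6 with DESeq2. The number of detected genes moved with the genotype, and with it as a covariate they were 3, 7 and 7. Without treatment and with DMSO, where nothing is read from the count, 6 and 6 of the 10 members, HSPA6 among them, did not overlap between the genotypes, where 19.7% and 20.1% of all tested genes did not.

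**Figure D4:**
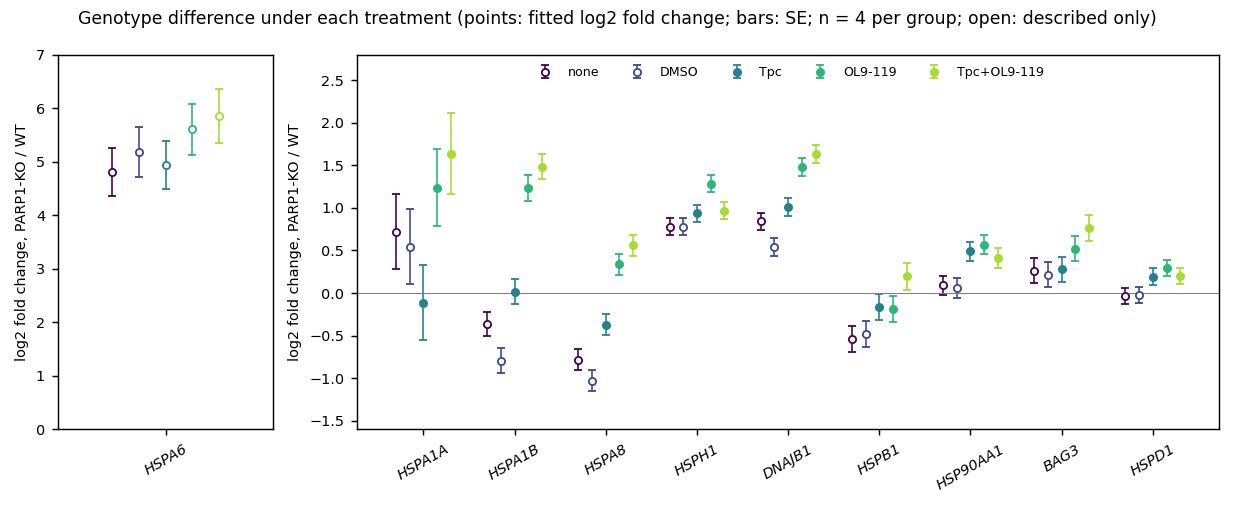
Log2 fold change, PARP1-KO over WT (vertical axes), of each heat shock gene under the 5 treatments, with HSPA6 on its own scale. Bars are the SE, n = 4 per group, and open points are described without a test. HSPA1B stands at −0.36 without treatment and 1.24 with OL9-119 and HSPA8 at −0.78 and 0.34, while HSPA6 lies between 4.81 and 5.86.

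Libraries whose names share a prefix (L01, L02 or L03) were compared within that prefix, on the log2(CPM + 1) scale. For HSPA6 the PARP1-KO to WT value was between 3.68 and 5.52 in all 14 combinations of treatment and prefix that held both genotypes. For OL9-119 against untreated WT cells HSPA1B stood at −2.30, −1.998 and −2.12 and HSPA8 at −1.98, −1.41 and −1.75 in the 3 prefixes. HSP90AA1 did not move alike, at −0.78, −0.04 and −0.67, and neither did HSPB1, at −1.11, 0.12 and −0.60. What the prefix stands for is not given in the sources used here.

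Over the 20 WT libraries the Pearson correlation of log2(CPM + 1) was 0.97 between HSPA1B and HSPA8, 0.94 between HSPA1B and DNAJB1 and 0.94 between HSPA8 and DNAJB1, and over the 20 PARP1-KO libraries 0.53, 0.61 and 0.47. These points share the 5 treatments, and the correlations are descriptions only. HSPA6 had correlations with the other 9 members of −0.20 to 0.39 over the WT libraries, where its counts are few, and of −0.43 to 0.56 over the PARP1-KO libraries. Over all 40 libraries the genes most like HSPA6 among 15346 others at 1 CPM or more were PPM1D (r = 0.97), CRYAB (r = 0.97), EMP1 (r = 0.97), KRT75 (r = 0.96) and MTHFD1 (r = 0.96), each with a higher mean in PARP1-KO cells, and these points are split by genotype. Over the 20 PARP1-KO libraries alone they were LCAT (r = 0.79), PCDHB15 (r = 0.79), ENSG00000269951 (r = 0.77), GPR89A (r = 0.74) and TEX264 (r = 0.73), and none was among the 5 over all libraries.

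Other folding genes were read from lists. Among 8 other cytosolic J-domain proteins OL9-119 lowered 2 in WT cells and raised 0, where 0.833% of all tested genes were called lower. DNAJA1, a partner of HSPA8, held 384 to 476 CPM without treatment and 200.05 to 230.4 CPM with OL9-119, a log2 fold change of −0.99 (SE 0.10, edgeR adjusted p = 4.45e-10), and DNAJB4 stood at −0.82 (SE 0.19, edgeR adjusted p = 0.00772). In PARP1-KO cells DNAJA1 held 623 to 673 CPM without treatment and 519 to 619 CPM with OL9-119. Under OL9-119 it was higher in PARP1-KO than in WT cells at 1.37 (SE 0.10, edgeR adjusted p = 1.22e-15). DNAJA1, DNAJB4 and DNAJA2 were the 3 of 8 called higher in PARP1-KO cells in each of the 3 drug treatments. Of all tested genes 4.17% were called higher with Tpc, 4.94% with OL9-119 and 3.56% with the combination.

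Of 10 mitochondrial chaperones and proteases, 1 was called lower with OL9-119 in WT cells, where 0.833% of all tested genes were. It was HSPE1, the HSP10 partner of HSPD1 that shares a bidirectional promoter with it, which held 27.5 to 63.4 CPM without treatment and 11.4 to 20.7 CPM with OL9-119, at −1.39 (SE 0.22, edgeR adjusted p = 1.41e-05). Of 10 HSP90 and cochaperone genes HSP90AB1, the constitutive HSP90, was called, at −0.35 (SE 0.08, edgeR adjusted p = 0.0061). Of 5 heat shock factor genes and binding proteins HSBP1, which binds HSF1 trimers, was called, at −0.79 (SE 0.12, edgeR adjusted p = 1.46e-05). HSF1 itself held 36.9 to 47.6 CPM in untreated WT cells and 44.9 to 50.7 CPM with OL9-119. HSPB11, an intraflagellar transport protein despite its name and listed as IFT25 in the annotation, was the 1 called of 7 tested other small heat shock genes, at −0.91 (SE 0.17, edgeR adjusted p = 0.000441). The lists without a call by edgeR were 7 other HSP70 and HSP110 genes, 8 exchange factors and cofactors, 8 TRiC subunits, 13 ER chaperones and 7 tested metallothionein and oxidative stress genes, with median log2 fold changes of −0.21, −0.24, −0.30, −0.19 and −0.34.

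With Tpc + OL9-119 in WT cells DNAJA1 at −0.58, HSPE1 at −1.22, HSPB11 at −0.83 and HSBP1 at −0.69 were called lower, with AHSA1, an activator of HSP90, at −0.51 (SE 0.13) and the metallothionein MT2A at −1.34 (SE 0.23). ER chaperones went both ways, with SDF2L1 at −1.26 (SE 0.31) and PDIA6 at −0.39 (SE 0.10) lower and DNAJB9 at 0.64 (SE 0.17) higher. BAG5, an HSP70 exchange factor, and DNAJA3, a mitochondrial J-domain protein, were higher at 0.69 (SE 0.17) and 0.42 (SE 0.10). The epithelial keratins KRT8 and KRT18, used as HEK293 markers, were lower at −0.55 (SE 0.11) and −0.47 (SE 0.11). The counts that follow are over all lists together, the marker lists included. With OL9-119 in WT cells edgeR called 6 genes (39 at an unadjusted p under 0.05) and DESeq2 17. Over all 28922 tested genes edgeR called 371 (4643 at an unadjusted p under 0.05). DESeq2 called 277 higher and 465 lower. With the combination in WT cells edgeR called 13 (42 at an unadjusted p under 0.05) and DESeq2 24. The markers KRT8 and KRT18 were among the 13. Over all tested genes edgeR called 1177 (6263 at an unadjusted p under 0.05). DESeq2 called 987 higher and 898 lower. With Tpc alone edgeR called 0 (25 at an unadjusted p under 0.05) and DESeq2 1 in WT cells. Over all tested genes edgeR called 248 (4499 at an unadjusted p under 0.05). DESeq2 called 331 higher and 230 lower. In PARP1-KO cells both tools called 0 with Tpc, OL9-119 and the combination, with 4, 6 and 3 genes at an unadjusted p under 0.05 in edgeR. Over all tested genes 1713, 931 and 1241 had an unadjusted p under 0.05 in edgeR.

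Between the genotypes the small heat shock gene CRYAB, αB-crystallin, held 15.8 to 18.8 CPM in untreated PARP1-KO and 0 to 5.83 CPM in untreated WT libraries. With OL9-119 it held 15.4 to 24.0 against 1.13 to 2.09 CPM, a log2 fold change of 3.60 (SE 0.54, edgeR adjusted p = 6.63e-07). HSPA14 at 1.17 and HSPA4 at 0.57 were the 2 of 7 other HSP70 and HSP110 genes called higher with OL9-119. Of all tested genes 4.94% were called higher and 4.83% lower in that comparison. HSPA9, the mitochondrial HSP70, was higher at 0.78 (SE 0.10, edgeR adjusted p = 3.23e-08). Other genes of these lists were lower with OL9-119. The HSP90 and myosin cochaperone UNC45A stood at −0.86 (SE 0.15) beside 2 higher of 10, the mitochondrial disaggregase CLPB at −0.66 (SE 0.16) beside 3 higher of 10, and the TRiC subunit CCT7 at −0.37 (SE 0.10) beside 4 higher of 8. HSF2 was called higher in all 3 drug treatments, at 0.85, 0.62 and 0.80, and HSF1 with the combination, at 0.85 (SE 0.14, edgeR adjusted p = 1.48e-05). HMOX1, the heme oxygenase induced by oxidative stress, was higher at 2.38 (SE 0.29) with Tpc, 1.80 (SE 0.28) with OL9-119 and 2.22 (SE 0.29) with the combination. Of the 7 tested metallothionein and oxidative stress genes 1, 3 and 2 were called higher, where 4.17%, 4.94% and 3.56% of all tested genes were. The metallothionein MT1F was called lower with Tpc, at −4.13 (SE 1.07, edgeR adjusted p = 0.00447). Its means there were 0.206 CPM in PARP1-KO and 3.84 CPM in WT cells. Of 13 ER chaperones 4 were called lower and 0 higher with OL9-119, where 4.83% and 4.94% of all tested genes were. The lower ones were led by PDIA4 at −1.23 (SE 0.12), HYOU1 at −0.91 (SE 0.13) and PDIA6 at −0.59 (SE 0.10). With Tpc 4 were lower and with the combination 3, where 4.34% and 3.71% of all tested genes were. HSPA5, the HSP70 of the ER, was higher in both of these treatments, at 0.61 (SE 0.11, edgeR adjusted p = 6.58e-05) and 0.45 (SE 0.11, edgeR adjusted p = 0.00436). Of the HEK293 markers LIN28B at 1.44, ENO2 at 0.78 and VIM at 0.66 were called higher in the clone with OL9-119 and 1 lower, and of the markers of other cells COL1A1 was called lower at −0.85 (SE 0.24). Their part in the differences above was not tested.

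**Figure D5:**
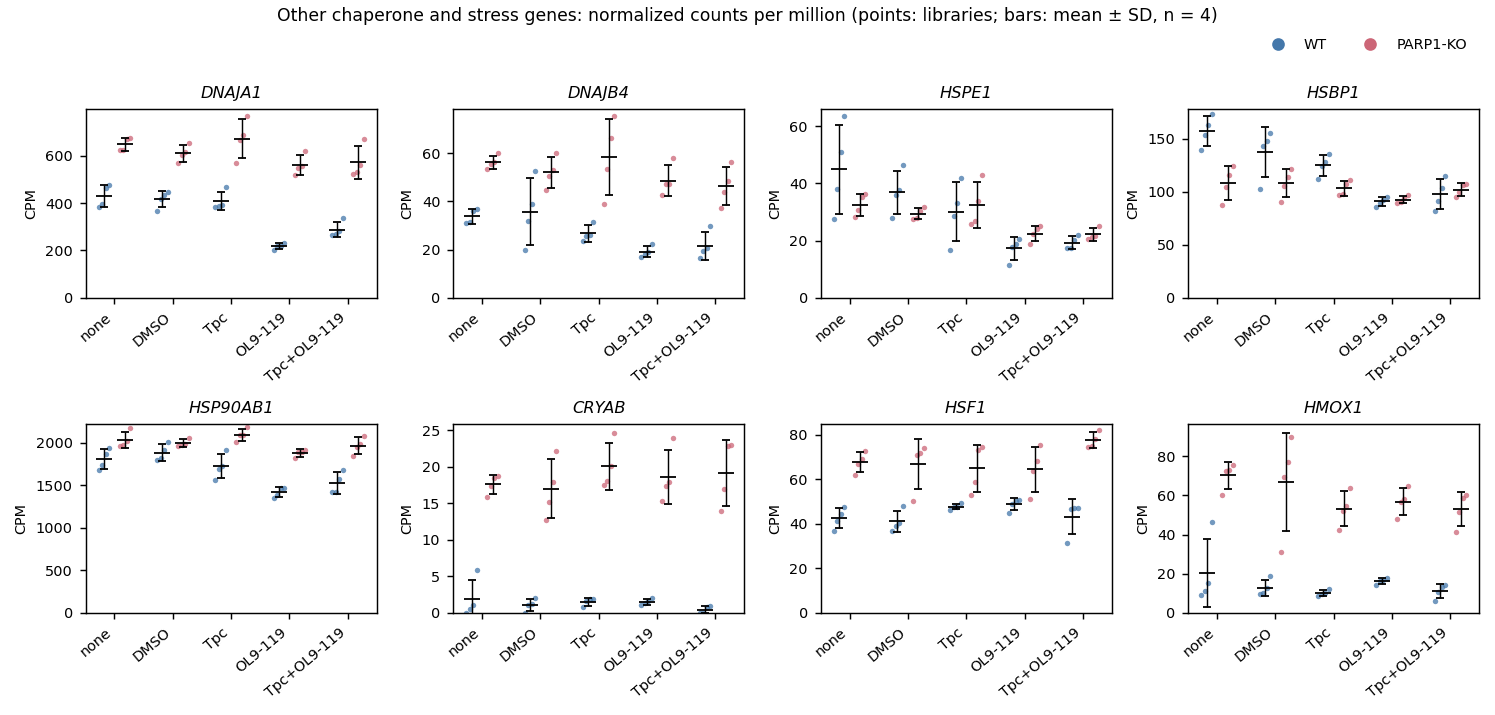
Normalized levels in CPM of 8 chaperone and stress genes outside the 10 members (vertical axes, linear from 0) in the 5 treatments of WT and PARP1-KO cells. Points are libraries and bars give the mean ± SD (n = 4). DNAJA1 has means of 429.9 CPM without treatment and 217 CPM with OL9-119 in WT cells and of 561 CPM with OL9-119 in PARP1-KO cells, and CRYAB and HMOX1 lie lower in WT than in PARP1-KO cells in the mean of every treatment.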

How the data were processed

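Poly(A) RNA of the 40 samples was made into directional libraries. Per the labels, the submitters' processing notes name FastQC 0.11.9, STAR 2.7.8, Picard 2.26.6 and the build hg38, and the authors deposited raw counts of reads per gene, not normalized and not pooled, in 1 table whose columns matched the 40 samples by name. Which strand column was counted is not given in the sources used here, and reads of overlapping antisense genes (TECR for DNAJB1, 6.41% of its exonic bases) could be included. The paper names the gene count option of STAR for these counts. Reads that map equally to near-identical copies may be missing from them, which bears on HSPA1A, HSPA1B, HSPA6 and HSPA7. No pair of replicates agreed within sampling noise (chi-square per degree of freedom 2.33 or more in 60 pairs).

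Genes with a summed count of at least 10 over all libraries (28922) were tested with the edgeR 4.0.16 quasi-likelihood test (R 4.3.3, TMM, legacy fit, 10 groups, all 40 libraries) and adjusted by Benjamini-Hochberg with a threshold of 0.01. The SE is the log2 fold change divided by the square root of F. CPM uses TMM library sizes, and counting error covers reads and not molecules. Symbols and lengths come from GENCODE 44 (57754 of 58395 genes matched) and promoters from RefSeq. Scripts were tested on simulated data.

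The 10 members, the lists and the rules were chosen with earlier results of these data known. Named genes are the members, PARP1, HSPA7, genes of the lists, and the 5 genes most correlated with HSPA6 over all and over the PARP1-KO libraries. The rule for the lists was the at most 3 called genes of largest absolute log2 fold change in each list and comparison. Not all genes under that rule are named, and some are given in comparisons where they ranked lower. TXNIP was named after its value was seen. A test of the HSPA6 genotype difference in drug-treated cells had been planned and is not reported, because HSPA6 was chosen for that difference. Alternatives were DESeq2 1.42.0, RLE, no filter, filterByExpr, only the libraries compared, the replicate number as a block, the name prefix, length and GC offsets, copies summed, the DMSO comparator and each library left out, and, added after seeing the data, the number of genes detected as a covariate.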

Additional observations from a re-analysis of the deposited data

Results flagged for a closer look

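In 7 of 100 groups of 4 libraries a single library lay far from the other 3, with a gap to its nearest neighbour, as a share of the whole range, above Dixon's 95% critical value, which chance gives in about 5% of such groups. For HSPA1A these were WT DMSO replicate 3 at 11.6 CPM against 3.44 to 4.54 CPM (gap 0.867 of the range) and untreated PARP1-KO replicate 1 at 9.88 CPM against 6.73 to 7.19 CPM (0.854). For HSPB1 they were WT DMSO replicate 3 at 336 CPM against 178 to 203 CPM (0.844), WT OL9-119 replicate 2 at 231 CPM against 134 to 147 CPM (0.862) and PARP1-KO Tpc + OL9-119 replicate 2 at 170 CPM against 151.0 to 151.3 CPM (0.980). DNAJB1 in WT Tpc + OL9-119 replicate 4 held 84.3 CPM against 108 to 113 CPM (0.837), in the library with the fewest counts. HSP90AA1 in WT OL9-119 replicate 2 held 2648 CPM against 2120 to 2163 CPM (0.918). Without that WT OL9-119 library HSPB1 passed the test for OL9-119 in WT cells, at −0.74 (edgeR adjusted p = 0.0018) in place of −0.54. WT OL9-119 replicate 2 and WT DMSO replicate 3 had 16740 and 15534 genes detected after thinning, where WT libraries ran from 15534 to 20626.

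The response to treatment differed between the genotypes for 3 members, tested as an interaction: HSPA1B by 1.60 with OL9-119 and 1.85 with Tpc + OL9-119, HSPA8 by 1.12 and 1.34, and DNAJB1 by 0.79 with Tpc + OL9-119. The DNAJB1 difference did not pass with length and GC offsets, at 0.73 (edgeR adjusted p = 0.0504).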

How the results depend on the processing

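Over 69 single values, 675 of 726 refits under other settings and 624 of 664 refits without a library kept their direction and their side of the threshold. The one value that reversed was HSPD1 in PARP1-KO against WT cells with Tpc, from 0.19 to −0.057 with length and GC offsets, and it was not called in either.
The number of members called with Tpc in WT cells was 1, and 3 without a filter, 0 with filterByExpr, 0 with copies summed, 2 against DMSO-treated cells and 0 to 1 with a library left out. With OL9-119 in WT cells it was 6, and 3 with only the libraries compared and 4 to 7 with a library left out. In PARP1-KO cells it was 0, and 2 with OL9-119 without a filter, 2 with only the libraries compared and 1 with genes detected as a covariate, and 2 with Tpc + OL9-119 with only the libraries compared. For the difference of the OL9-119 responses it was 2, and 4 with DESeq2. Of the 9 members other than HSPA6, 5 were called in PARP1-KO against WT cells with OL9-119, and 8 with only the libraries compared. The cause of these changes was not tested.
The HSPA6 difference with DMSO was 4.48 with HSPA7 added and 4.77 to 7.14 with a library left out, without treatment 4.35 to 5.54, with OL9-119 5.30 to 5.76 and with Tpc + OL9-119 5.40 to 6.91. PARP1 stayed at 4.04% to 5.57% of WT when a library was left out.
Length and GC offsets moved the share of all calls that were higher from 49.0% to 33.3% in PARP1-KO against WT cells with Tpc + OL9-119. In WT cells they moved it from 64.5% to 43.4% with Tpc and from 65.4% to 78.8% for the combination against Tpc, and the lower calls with OL9-119 from 241 of 371 to 312 of 416.
Replicate numbers did not pair the libraries: in none of 15 comparisons did all 4 same-numbered pairs correlate above 0.1. With the replicate number as a block 6 members were called with OL9-119 in WT cells and 2 in the difference of the OL9-119 responses, as without it, and no count of members changed.
Counts limit WT HSPA6 and HSPA7 (0 to 48 reads per library) and HSPA1A.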
